A study of Mus musculus with 19 samples.

Results

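The islets compared here came from 2 inbred mouse strains and were kept in low glucose. Islets of 12-week-old male C57BL6/J (B6, C57BL/6 in the labels) and C57BLKS/J (BLKS) mice were isolated, left for 48 h in 11 mM glucose and then held for 24 h at 5 mM. Of the 19 mice of the series, 10 belong to this comparison, 5 of each strain, and they were taken by the titles of the samples. The other 9 mice (5 B6 and 4 BLKS) gave islets held for 24 h at 20 mM and serve here only as a reference for the strain difference. The labels name no engineered allele and no drug, and all groups shared the first period of culture. Islet RNA (200 ng per mouse) was labelled in Cy3 and Cy5 and hybridised to Agilent arrays read in 2 colours, mostly against the mouse of the other strain with the same number. RNA was taken from whole islets, so that fewer cells of a type and less RNA per cell could not be told apart in any result.

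Islets are small organs within the pancreas in which beta cells, which release insulin, lie beside alpha, delta and PP cells, with vessels, macrophages and traces of duct and acinar tissue. Beta cells fold and process very large amounts of proinsulin in the endoplasmic reticulum (ER) and meet that load through the unfolded protein response, while the amino acid response adjusts serine and asparagine synthesis and amino acid uptake through the factor ATF4. BLKS is the strain whose islets are known to fail under insulin resistance, and B6 is the more resistant one, which is the contrast the study addresses.

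Among the 10 libraries, those labelled B6 replicate 4 and BLKS replicate 5 went against their labels. At 106 probes that differed over 2-fold between the strains in the high-glucose mice alone, a position was given to each low-glucose library, with 0 for the B6 mean and 1 for the BLKS mean. B6 replicates 1, 2, 3 and 5 had positions of -0.05, 0.02, -0.02 and -0.06 (medians over the probes). BLKS replicates 1 to 4 had positions of 0.93, 0.97, 0.95 and 1.01. The library labelled B6 replicate 4 was at 1.01 and that labelled BLKS replicate 5 at -0.05, each at the positions of the other strain's mice. Results are therefore given in both ways, with the labels as deposited (5 against 5 mice) and with both libraries left out (4 against 4), and differences are BLKS minus B6 on the log2 scale. Since the libraries were left out for their strain profile, the p-values of the second way hold only given that choice.

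With the labels as deposited, limma called 0 of 29326 probes (0.0%) at an adjusted p under 0.05, while 4713 had an unadjusted p under 0.05 (16.1%). The groups did not overlap at 355 probes (1.21%). With the replicate number as a fixed block, since same-numbered mice shared arrays, 2357 probes were called. In that fit the 2 libraries of replicate 4 both had BLKS positions (1.01 and 1.01). Those of replicate 5 both had B6 positions (-0.06 and -0.05), so that neither block held a contrast of strain profiles. With both libraries left out, 4585 probes (15.6%) were called, 2071 higher in BLKS (7.06%) and 2514 lower (8.57%). The share of calls that was higher in BLKS was 45.2%, compared with 54.9% without scaling between arrays and 28.6% in the log2 values the authors deposited. Of the 4585 calls, 128 differed over 2-fold (0.436%), 75 higher (0.256%) and 53 lower (0.181%). The 4 mice of each strain did not overlap at 5294 probes (18.1%), among them 3911 of the called ones. Most called differences were small, with 3915 between 1.1-fold and 1.5-fold and 366 between 1.5-fold and 2-fold. With 1 probe per gene, the brightest, 3022 of 15997 genes were called (18.9%), 1365 higher (8.53%) and 1657 lower (10.4%), with a median difference of 0.01 over all genes, and gene lists are read against these shares.

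The widest gap was at the probe of H2-Q1, an MHC class I gene, and the next ones lay in genes of varied function. Its log2 signal was 11.35, 11.32, 11.22 and 11.31 in B6 replicates 1, 2, 3 and 5, and 6.40, 6.12, 6.21 and 5.89 in BLKS replicates 1 to 4. The BLKS values lay near the negative control spots of the arrays, whose median log2 signal was 5.62 to 6.11, so that the strain difference of -5.15 (standard error 0.08, adjusted p = 2.81e-17 in limma) can understate the gap, background not having been subtracted. The library labelled B6 replicate 4 gave 5.92 and that labelled BLKS replicate 5 gave 11.37, and with both in place the difference was -3.03 with an adjusted p of 0.161. The strains carry different MHC haplotypes, and the other H2-Q1 probes differed by -0.22 (adjusted p = 0.0812) and 0.42 (adjusted p = 1.90e-04), so that the value belongs to 1 probe and not to the gene as a whole.

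Higher in BLKS, the largest differences included the uncharacterised transcript 6330403K07Rik, the transcription factor gene Plagl1, and Spp1 and Lcn2, which encode secreted proteins. For 6330403K07Rik, the log2 signal was 8.74, 9.22, 9.09 and 8.58 in the B6 mice and 13.05, 12.90, 12.93 and 12.84 in the BLKS mice, a difference of 4.02 (standard error 0.21, adjusted p = 4.81e-10) or 16.2-fold. The BLKS mice lay close together in the plot of leading probes, while the library labelled BLKS replicate 5 was at 7.95, below every B6 mouse. Spp1, which encodes osteopontin and is high in duct cells, stood at 11.60, 11.10, 11.48 and 11.06 in B6 and at 13.28, 13.43, 13.84 and 14.05 in BLKS, a difference of 2.34. Crybb3, which encodes a crystallin, stood at 9.20, 8.96, 8.99 and 8.82 in B6 and spread from 10.21 to 11.68 in BLKS, where replicate 1 was the lowest. Lcn2, an acute phase gene, spread in both strains, from 6.26 to 6.95 in B6 and from 8.08 to 8.84 in BLKS, without overlap. Plagl1, an imprinted gene, was higher by 2.85 at 1 probe and by 0.75 at its other probe.

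Further genes higher in BLKS had tight groups. Nnt, the mitochondrial transhydrogenase that makes NADPH, was at 8.02, 8.11, 8.11 and 7.90 in B6 and at 9.82, 9.89, 9.95 and 9.84 in BLKS, a difference of 1.84 (standard error 0.05, adjusted p = 6.78e-14). Of its 5 tested probes, 3 were called (1.84, 1.79 and 1.62) and 2 near background were not (0.04 and 0.05). The calmodulin-binding peptide gene Pcp4 was higher by 1.81, Ocel1 by 1.79, Btbd9 by 1.79, the neuropeptide gene Npy by 1.69 and the actin regulator Cap1 by 1.63. Gnptg, part of the enzyme that tags lysosomal proteins, was higher by 1.58 at 1 probe. At its brighter probe the difference was only 0.27 to 0.39 in fits that left out 1 mouse. For Npy, the B6 mice ranged from 7.14 to 7.92 and the BLKS mice from 8.94 to 9.65. Btbd9 again rested on 1 probe, as its others differed by -0.31 and -0.04 and were not called.

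Lower in BLKS after H2-Q1 came 5830417I10Rik (-2.39), Thumpd1 (-2.37), Msln (-2.18), Rec8 (-1.93), 4833420G17Rik (-1.60) and Hgfac (-1.52). Msln, which encodes mesothelin and marks the mesothelium that covers the pancreas, was at 10.79, 11.17, 10.95 and 10.61 in B6 and at 8.65, 8.19, 8.94 and 9.02 in BLKS. Rec8, a cohesin subunit of meiosis, was at 11.15, 11.17, 11.32 and 11.62 in B6 and at 9.42, 9.61, 9.21 and 9.30 in BLKS. The remaining leading genes were Zzef1 (-1.50), the synaptic vesicle gene Synpr (-1.49), the serine protease gene Tmprss2 (-1.48), the ubiquitin ligase gene Rnf150 (-1.46) and Erdr1 (-1.42). For Thumpd1, all 4 BLKS mice lay between 5.85 and 6.27, near the negative controls, against 8.32 to 8.69 in B6. For 5830417I10Rik, the second probe differed by 0.08, and the 3 tested Zzef1 probes ranged from -1.50 to -0.10.

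**Figure D1:**
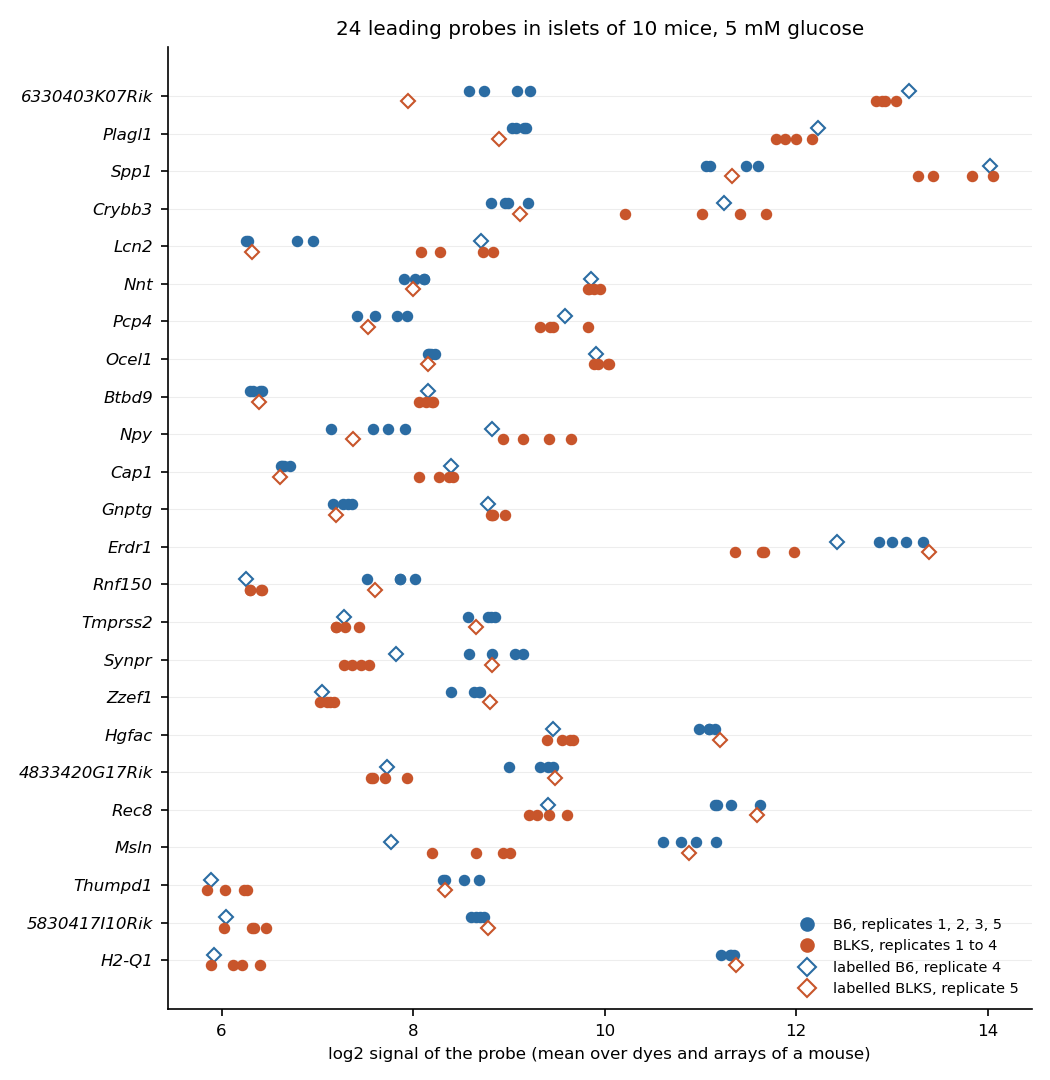
Log2 signal of each low-glucose mouse at the 24 probes with the largest called differences, 12 higher and 12 lower in BLKS, with 1 row per probe. Filled points are the 8 mice compared and open diamonds the 2 libraries left out. The open diamonds lie with the points of the other strain, except that for Erdr1 the library labelled B6 replicate 4 (12.42) lies between the strains and is the nearer to B6.

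All 24 leading probes kept their direction in the high-glucose mice, which are other animals, and 23 of 24 did so there without overlap. However, 23 of 24 were also among the 106 probes that placed the libraries, so that their agreement in high glucose was fixed by that choice. With the labels as deposited, the exact permutation test gave 0.0317 for Synpr and values from 0.0556 (Erdr1) to 0.206 (6330403K07Rik) for the other leading probes, against a smallest possible p of 0.00794 for 5 against 5 mice. With both libraries left out, the leading probes had been chosen for groups without overlap, so that their exact p is the smallest that 4 against 4 mice allow (0.0286) by that choice and adds nothing. Across called probes over 2-fold, the median of the deposited difference over the difference with both left out was 0.599.

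Genes with larger differences had an adjacent gene with one more often than other genes did, though most of them had none. In the RefSeq order of the tested genes, 550 of 15997 (3.44%) had a called probe over 0.5 log2 units. Of these, 89 (16.2%) had an adjacent gene past the same limit, compared with 6.30% of the other genes. The longest run held the 4 genes Nnt, Paip1, 4833420G17Rik and 3110070M22Rik. Within it the direction was mixed, as the 3 Paip1 probes were higher in BLKS (0.78, 0.76 and 0.54) and the probes of 3110070M22Rik were lower (-0.41 and -0.64). Cbr1 and Cbr3, neighbouring carbonyl reductase genes, differed in opposite directions (0.58 and -1.01), whereas Anxa11, Plac9a and Tmem254a were all lower (-0.51, -1.34 and -1.16), and so were the phospholipase genes Pla2g2c, Pla2g2f and Pla2g2d (-0.82, -1.29 and -0.56).

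The groups of genes that moved most uniformly were those of the ER and of amino acid supply, which were higher in BLKS, and those of cell division, which were lower. Of 25 tested genes of the unfolded protein response and ER folding, 15 (60%) were called higher and 0 lower, with a median difference of 0.40. Of 18 genes of the amino acid response, 10 (55.6%) were higher and 0 lower, with a median of 0.43. Of 24 genes of cell division (70.8% called), 16 were lower and 1 was higher, with a median of -0.21. With the labels as deposited, no member of these lists was called, and the medians were 0.27, 0.27 and -0.12. The lists were written with earlier results of these data known, which can raise the shares called.

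**Figure D2:**
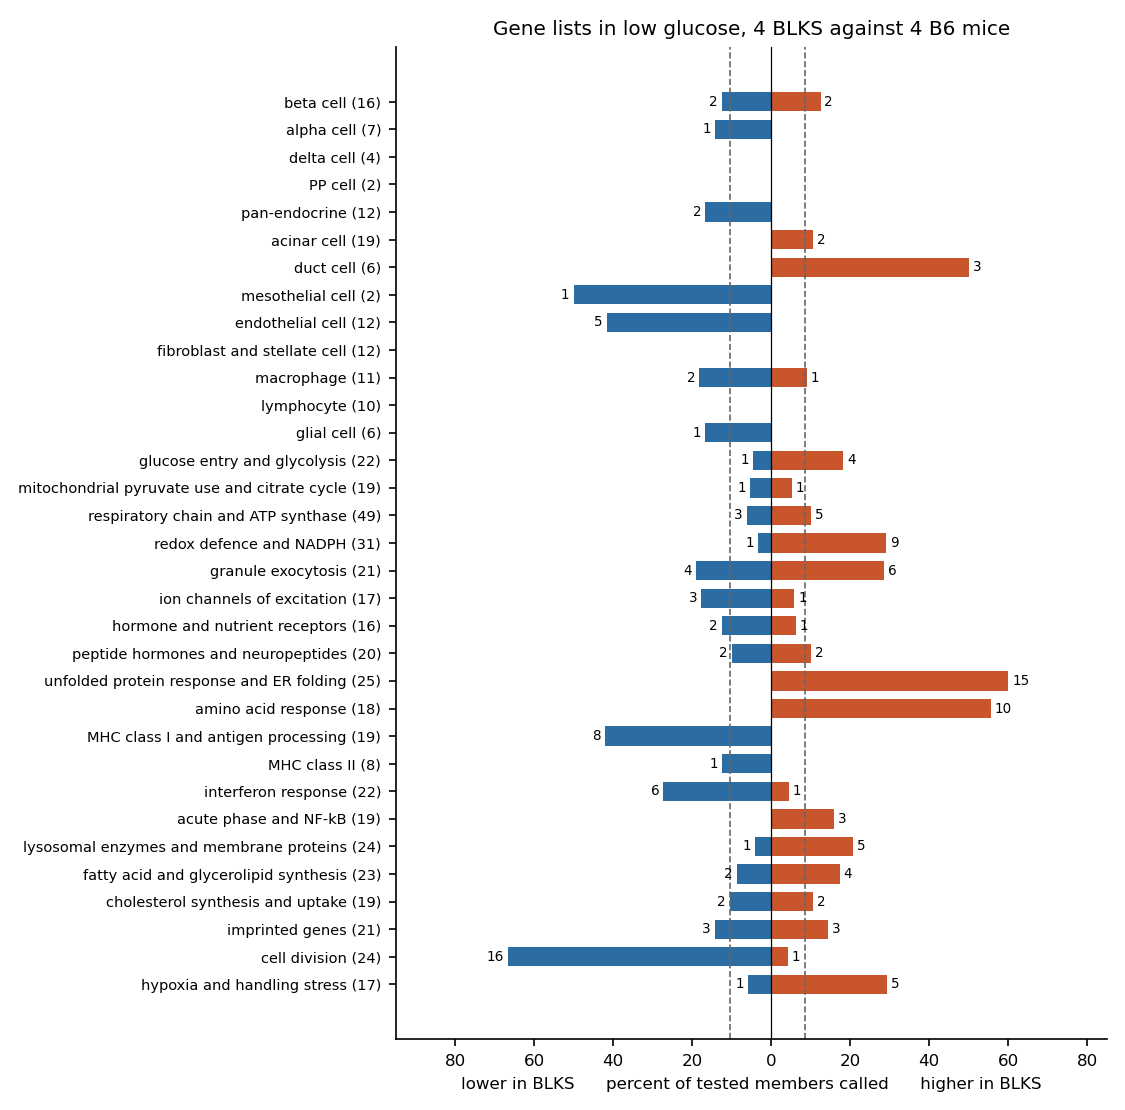
Share of the tested members of 33 gene lists that was called in low glucose, with both libraries left out, to the right where higher and to the left where lower in BLKS. The number of tested members stands behind each name and the number of called ones at the end of each bar, and dashed lines mark the shares over all genes (8.53% higher, 10.4% lower). The bars of the unfolded protein response, the amino acid response and cell division reach farthest past these lines among lists with over 6 members. The lists were written with earlier results of these data known.

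The largest differences of the ER list were those of Fkbp11, Trib3, Sdf2l1 and Creld2. Fkbp11, a prolyl isomerase of the ER, was at 9.51, 9.95, 9.45 and 9.19 in B6 replicates 1, 2, 3 and 5 and at 10.52, 10.50, 10.75 and 10.73 in BLKS replicates 1 to 4, 2.14-fold higher (standard error 0.12 on the log2 scale). Trib3, a pseudokinase gene induced under ER stress, was higher by 1.03 (standard error 0.09), with B6 mice from 9.36 to 9.76 and BLKS mice from 10.55 to 10.66. Sdf2l1 and Creld2, which code for ER proteins that assist folding, were higher by 0.91 and 0.82. Hspa5, the central chaperone of the ER known as BiP, was at 14.22, 14.12, 14.28 and 13.78 in B6 and at 14.46, 14.50, 14.66 and 14.50 in BLKS. That difference of 0.43 (standard error 0.09, adjusted p = 0.00237) was small, though without overlap.

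Of the list, 10 members were not called. Atf4 and Ddit3, transcription factor genes of the PERK arm, were higher by 0.39 and 0.34, whereas Atf3 (0.04), Xbp1 (-0.13) and the sensor genes Ern1 (0.09) and Eif2ak3 were not called. Neither were Pdia3 (0.20), Pdia6 (0.26), Calr (0.25) and Canx (0.06), which encode chaperones and disulfide isomerases, nor Edem1 (0.10) and Sel1l (0.30), which act in ER-associated degradation. Dnajc3, Hyou1, Manf, Dnajb11, Hsp90b1, Pdia4, Dnajb9 and Herpud1, which encode chaperones and ER-associated factors, completed the called members, between 0.40 and 0.63. The mean log2 level of the whole list ranged from 10.63 to 10.86 in the 4 B6 mice and from 11.12 to 11.24 in the 4 BLKS mice. The library labelled B6 replicate 4 was at 11.11 and that labelled BLKS replicate 5 at 10.90, the former just below the BLKS range and the latter just above that of B6.

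In the amino acid response, Phgdh, Psat1 and Psph, which encode the successive enzymes of serine synthesis, were all called higher. Phgdh, the first enzyme, was at 10.63, 10.68, 10.48 and 10.47 in B6 and at 11.77, 11.57, 11.50 and 11.57 in BLKS at its brightest probe, a difference of 1.04 (standard error 0.06, adjusted p = 1.07e-09). Its other probes gave 1.40 and 1.04. Psph was higher by 0.94 and Psat1 by 0.70. Shmt2 and Mthfd2, mitochondrial enzymes that use serine for one-carbon units, were higher by 0.65 and 0.41, and Asns, which makes asparagine, by 0.44.

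Transporter genes of the list were in part called. The transporter gene Slc7a3 was called, with B6 mice from 6.62 to 7.07 and BLKS mice from 7.75 to 7.98, and Slc7a5 was higher by 0.28, while Slc7a1 (0.11), Slc38a2 (0.12), Slc7a11 (0.15), Slc1a4 (0.17) and the subunit gene Slc3a2 (-0.05) were not called. Cebpb, a transcription factor gene, was at 10.07, 10.12, 9.82 and 9.86 in B6 and at 10.80, 10.52, 10.70 and 10.71 in BLKS, higher by 0.71. Chac1, an enzyme of glutathione breakdown, was higher by 0.66. The mean level of the list ranged from 9.57 to 9.71 in B6 and from 10.01 to 10.23 in BLKS, and BLKS replicate 1 was the highest of the 8 mice.

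Promoter sequences of these lists were read for the letters of elements known to act in them, in RefSeq windows of build GRCm38.p6 from 250 bases before to 50 bases after the start. The promoters of a single chromosome were left out of every count. The 6 motifs searched on both strands were the ER stress response element (CCAAT, a spacer and CCACG), the CCAAT box it contains (CCAAT), the C/EBP-ATF response element (TGATGNAA), the cell cycle homology region (TTTGAA) and 2 forms of the E2F site (TTTCGCGC and TTTCCCGC). The ER stress response element stood in 7 of 23 promoters of the ER list, compared with 35 of 27025 promoters in all (0.13%). It was present in 4 of 13 called members and in 3 of 10 not called, so that it did not separate members that moved from the rest. The CCAAT box was in 19 of these 23 promoters and in 37.9% of all. Shown next are the 250 bases before the start of the 4 called genes that hold the element, 5′ to 3′ in the direction of the gene and from RefSeq, with the element in capitals. They lie at chr2:34771840-34772089 (plus strand), chr10:86705445-86705694 (minus strand), chr14:118937682-118937931 (plus strand) and chr15:88819396-88819645 (plus strand).
Hspa5: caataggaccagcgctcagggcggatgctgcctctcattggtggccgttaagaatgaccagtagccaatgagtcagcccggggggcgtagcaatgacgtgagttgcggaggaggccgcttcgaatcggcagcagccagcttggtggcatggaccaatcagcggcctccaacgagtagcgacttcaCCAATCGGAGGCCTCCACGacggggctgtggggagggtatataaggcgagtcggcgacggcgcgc
Hsp90b1: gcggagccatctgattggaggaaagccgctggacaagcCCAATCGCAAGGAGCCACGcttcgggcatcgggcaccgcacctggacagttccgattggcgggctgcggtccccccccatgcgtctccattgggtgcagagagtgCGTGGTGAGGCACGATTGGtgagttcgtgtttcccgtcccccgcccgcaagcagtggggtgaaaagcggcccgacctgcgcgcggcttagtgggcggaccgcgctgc
Dnajc3: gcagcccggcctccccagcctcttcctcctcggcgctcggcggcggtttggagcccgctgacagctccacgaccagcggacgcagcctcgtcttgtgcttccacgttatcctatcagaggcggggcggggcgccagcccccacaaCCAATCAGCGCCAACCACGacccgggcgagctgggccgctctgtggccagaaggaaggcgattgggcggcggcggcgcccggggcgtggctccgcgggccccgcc
Creld2: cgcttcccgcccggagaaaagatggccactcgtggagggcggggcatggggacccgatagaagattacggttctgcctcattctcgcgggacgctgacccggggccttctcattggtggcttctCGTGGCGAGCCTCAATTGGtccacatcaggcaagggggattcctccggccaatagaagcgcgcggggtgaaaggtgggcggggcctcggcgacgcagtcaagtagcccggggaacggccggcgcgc
In Hspa5 and Dnajc3 the element reads forward, in Creld2 it reads on the other strand, and Hsp90b1 holds it once in each direction. The strain differences of these genes were 0.43, 0.63, 0.82 and 0.47, in the order Hspa5, Dnajc3, Creld2 and Hsp90b1.

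The C/EBP-ATF response element was found in 4 of 15 promoters of the amino acid list, and in 4.06% of all promoters. It was in 2 of 8 called members (Asns and Chac1) and in 2 of 7 not called (Slc7a11 and Slc1a4). In the cell division list, TTTCGCGC was found in 4 of 22 promoters (Cdk1, Mcm5, Mcm6 and Mcm7) and in 0.318% of all. It was in 4 of 14 called members, these 4 being lower in BLKS, and in 0 of 8 others, among them the untested Cdkn2a. As most of the 22 promoters belong to called genes, so few matches cannot show whether the site separates genes that moved from the rest. TTTCCCGC stood in 3 of 22 (2 of 14 called and 1 of 8 others) against 1.11%, and TTTGAA in 6 of 22 (4 of 14 called and 2 of 8 others) against 18.1%. The promoter of Mcm5 (chr8:75109259-75109508, plus strand), which encodes a part of the replicative helicase, is shown with its E2F letters in capitals, as an example of the genes that were lower.
Mcm5: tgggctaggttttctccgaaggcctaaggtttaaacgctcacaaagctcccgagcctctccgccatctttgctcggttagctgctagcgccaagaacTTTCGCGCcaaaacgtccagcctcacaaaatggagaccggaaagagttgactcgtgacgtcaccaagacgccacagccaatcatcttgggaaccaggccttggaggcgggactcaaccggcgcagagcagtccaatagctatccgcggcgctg
A match is a description of letters, and binding was not measured.

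Among the 24 genes of cell division, 7 were not called, and the largest difference was that of Mki67. Mki67, the proliferation marker, was at 7.88, 7.95, 7.93 and 7.52 in B6 and at 6.95, 6.98, 7.12 and 7.01 in BLKS, a strain difference of -0.81 (adjusted p = 1.92e-04, standard error 0.13). B6 replicate 5 was the lowest of its strain and still above every BLKS mouse. Birc5, which encodes survivin, differed by -0.51, Ccna2 by -0.45 and Top2a by -0.26. The helicase genes Mcm5, Mcm3, Mcm6 and Mcm7 differed by -0.47, -0.42, -0.39 and -0.36, while Mcm2 (-0.15) and the mitotic cyclin gene Ccnb2 (-0.19) were not called.

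The D-type cyclins, which couple growth signals to the cell cycle, divided within the group. Ccnd1 was at 10.77, 10.79, 10.93 and 10.77 in B6 and at 10.19, 10.20, 10.28 and 10.16 in BLKS, a difference of -0.61 (standard error 0.05). Ccnd2, the main D-type cyclin of beta cells, differed by -0.50, whereas Ccnd3 (0.07) and the kinase gene Cdk4 (-0.10) were not called. The only member higher in BLKS was Cdkn1a, which encodes the cell cycle inhibitor p21, with a difference of 0.52 (standard error 0.07). The mean level of the list ranged from 7.78 to 7.96 in B6 and from 7.62 to 7.70 in BLKS.

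**Figure D3:**
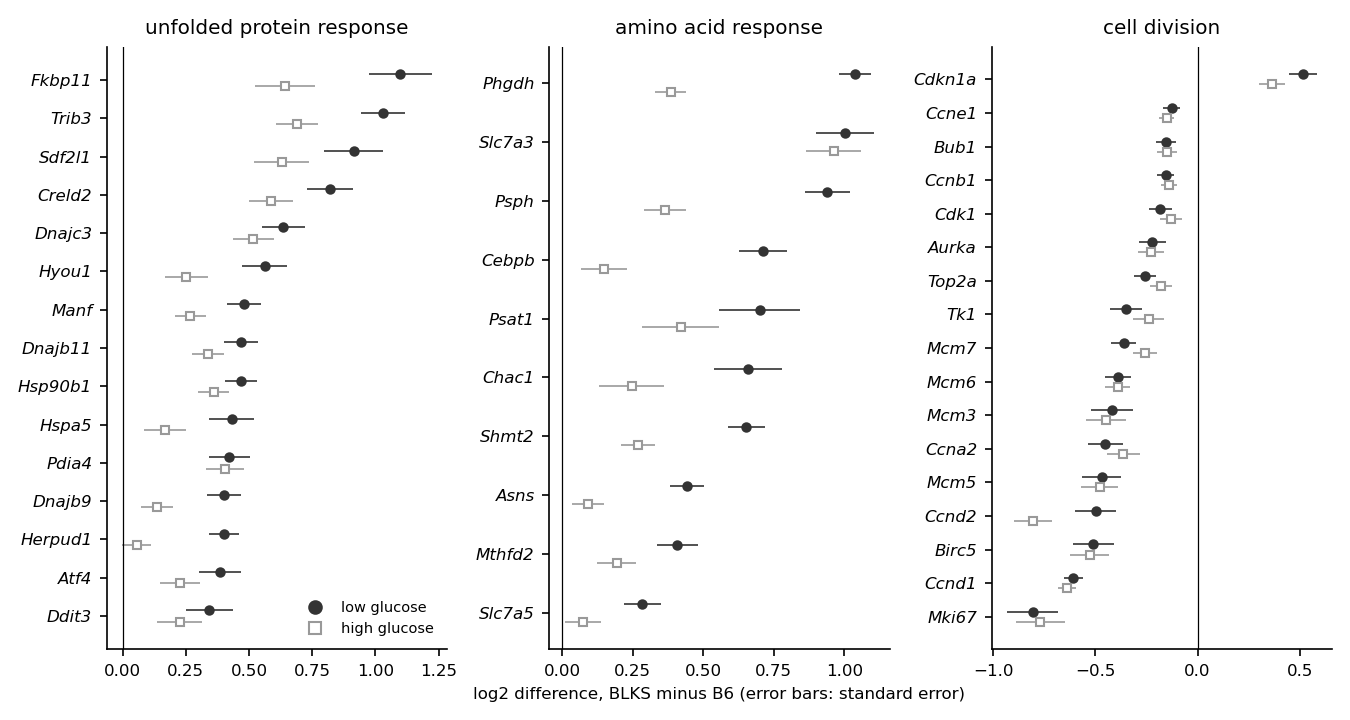
Strain difference (log2, BLKS minus B6, with standard errors) of the members called in low glucose from 3 lists, at the brightest probe of each gene. Black points are low glucose with both libraries left out (4 against 4 mice) and open squares high glucose (4 BLKS against 5 B6 mice). All 15 ER and 10 amino acid genes have the larger value in low glucose, as had 75.1% of all probes called there, a choice that favours larger low-glucose values, while the 2 values nearly coincide for Mki67 (-0.81 and -0.77).

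MHC class I and antigen processing genes were mostly lower in BLKS where they differed. Of 19 tested genes, 8 (42.1%) were lower and 0 higher at their brightest probe, with a median of -0.22. With all tested probes of a gene averaged, the median was -0.09, and at the brightest probes in high glucose it was -0.03. H2-K1, a classical class I gene, was at 13.72, 13.61, 13.78 and 13.62 in B6 and at 12.56, 12.64, 12.59 and 12.64 in BLKS, a difference of -1.07. H2-Q2 and H2-T22 differed by -0.74 and -0.53, and Psmb10, an immunoproteasome subunit gene, by -0.37, while the classical gene H2-D1 (0.17) and the light chain gene B2m (0.21) were not called. The H2 genes resemble each other closely, so that a probe may read several of them. Of 22 interferon response genes (31.8% called), 6 (Bst2, Ifih1, Irf1, Rsad2, Oasl2 and Ifit3, from -0.65 to -0.38) were lower and 1 (Usp18, 0.24) was higher. Of 8 MHC class II genes, 1 was lower (12.5% called), a call lost without B6 replicate 1 or 5 or any BLKS mouse, with 2 lower without B6 replicate 3. Of 19 acute phase and NF-kB genes, 3 were higher (15.8% called), Lcn2, the complement gene C3 (0.85) and Relb (0.33), with 5 higher without high-glucose B6 replicate 5. These last 2 shares lay below the 18.9% of all genes, so that the counts are no result about the MHC class II and acute phase lists.

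Redox and NADPH genes were higher in BLKS in 9 of 31 and lower in 1 (32.3% called, against 18.9% of all genes). Next to Nnt, the heme oxygenase gene Hmox1 (0.69), the quinone reductase gene Nqo1 (0.49), the sulfiredoxin gene Srxn1 (0.39) and Gpx4 (0.39) were higher. The exception was Txnip, the thioredoxin inhibitor that glucose induces, at 10.44, 9.83, 10.36 and 10.31 in B6 and at 9.39, 9.12, 9.26 and 8.85 in BLKS, a difference of -1.08 (standard error 0.21, adjusted p = 0.00143). With the log2 values the authors deposited in place of the scanner signals, 5 members were called higher.

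In glycolysis, 3 of the 4 BLKS mice stood apart from the fourth. The mean level of 22 genes was at most 9.59 in B6 and 9.97, 10.02 and 10.07 in BLKS replicates 2, 3 and 4, while BLKS replicate 1 was at 9.41, below every B6 mouse. Accordingly, the median difference was 0.44, but only 4 genes were called higher (Eno2, Slc2a1, Pgk1 and Pfkp) and 1 lower (Eno3, -0.76). With all tested probes of a gene averaged, the median was 0.29. The share called (22.7%) was not far above the 18.9% of all genes, so that the count is no result about the list. Of 17 fits that left out 1 mouse, 9 lost the Pfkp call and 4 the Pgk1 call. Without BLKS replicate 1, 14 members were called higher, and without any 1 of B6 replicate 5 and BLKS replicates 2, 3 and 4 only 2 were. With the replicate number as a fixed block, 1 was called higher. In that fit BLKS replicate 4 and B6 replicate 5 had no partner, so that the difference rested on replicates 1, 2 and 3 of each strain. Eno2, the neuronal enolase, was higher in all 4 BLKS mice (9.26, 9.59, 9.54 and 9.77 against 8.29 to 8.33 in B6), and so was Slc2a1, the glucose transporter GLUT1 (8.76, 9.51, 9.90 and 10.01 against 8.13 to 8.52). Pgk1 followed the split, at 12.13 in BLKS replicate 1 and at 13.22, 13.30 and 13.54 in the other BLKS mice, with B6 mice between 11.90 and 12.30.

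Genes that respond to hypoxia or handling were measured beside these results. Of 17, 5 were higher in BLKS (Fos, Hspa1a, Ier3, Egr1 and Ier2) and 1 was lower (Ndrg1), and without BLKS replicate 1 the number higher was 8. Fos, an immediate early gene, was at 7.10, 6.83, 7.10 and 6.80 in B6 and at 7.96, 7.62, 8.45 and 8.42 in BLKS, higher by 1.15. Bnip3, a hypoxia target, was at 9.79 in BLKS replicate 1 and from 10.89 to 11.19 in the other BLKS mice, against 9.81 to 10.03 in B6 (difference 0.81, adjusted p = 0.0849). The part of hypoxia or handling in the glycolytic and ER values was not tested.

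**Figure D4:**
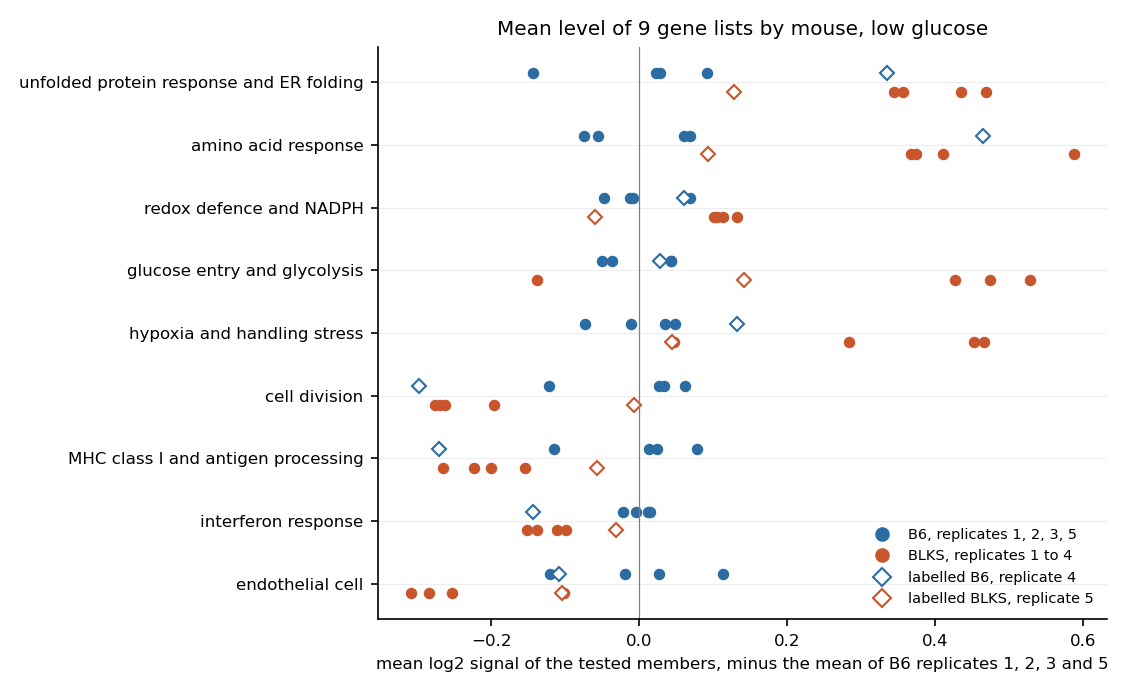
Mean log2 level of 9 gene lists in each low-glucose mouse, relative to the mean of B6 replicates 1, 2, 3 and 5, with symbols as in the plot of leading probes. BLKS replicate 1 lies apart from the other BLKS mice for glycolysis (9.41 against 9.97 to 10.07) and near the B6 mice for hypoxia and handling stress, and within or beside the BLKS range for the ER, amino acid and cell division lists.

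Genes of endocrine identity were read next. The arrays were saturated in all 10 libraries for Ins1, Ins2, Iapp, Gcg, Sst, Pyy, Chga and Pcsk2, and in 8 for Ppy, so that these hormone and granule genes gave no usable comparison. Of 16 beta cell genes, 3 of them saturated, 4 were called (25%, against 18.9% of all genes). Of these, 2 were higher, the factor gene Pdx1 (0.33) and the prohormone convertase gene Pcsk1 (0.50), and 2 were lower, the granule zinc transporter gene Slc30a8 (-0.51) and Ucn3 (-0.48). The glucose transporter gene Slc2a2 (-0.32, adjusted p = 0.148) and Mafa (0.00) were not called. Of 12 genes shared by endocrine cells (16.7% called), the carboxypeptidase gene Cpe (-0.53) and Scg5 (-0.37) were lower. Of 7 alpha cell genes (14.3% called) only Gc (-0.41) was lower, and its call was lost without B6 replicate 3 or BLKS replicate 1 or 2. Both shares lay below that of all genes, so that these counts are no result about the lists. None of the 4 delta and 2 PP cell genes was called.

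The machinery of secretion moved in both directions, and with about equal numbers. Of 21 exocytosis genes (47.6% called, against 18.9% of all genes), 6 were higher and 4 lower. The priming factor gene Unc13a was higher by 0.97 (6.87, 6.97, 6.78 and 6.95 in B6 and 7.76, 7.78, 7.91 and 8.01 in BLKS), and Cadps, which primes dense-core granules, was lower by a difference of -0.98 (10.22, 10.15, 10.38 and 10.38 in B6 and 9.26, 9.37, 9.34 and 9.21 in BLKS). Ptprn, Rab3a and Rab3d were higher by 0.43, 0.42 and 0.41, and the complexin gene Cplx2 was lower (-0.49). Of 17 ion channel genes (23.5% called), 3 were lower, with the potassium channel gene Kcnk16 first (-0.68), and 1 was higher. Of 16 receptor genes (18.8% called), Igf1r was higher (0.83) and 2 were lower (Ghr and Gpr119). The number lower was 0 without B6 replicate 2 or 5 or BLKS replicate 3 or 4, and 1 without B6 replicate 3 or BLKS replicate 1 or 2. Among 20 peptide genes (20% called), Npy and the calmodulin-binding peptide gene Pcp4 were higher, and Ghrl (-0.66) and Gal (-0.42) were lower. The ion channel, receptor and peptide shares lay near the 18.9% of all genes, so that these counts are no result about the lists.

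For mitochondrial genes, the share called was near or below the 18.9% of all genes, with 16.3% in the respiratory chain and 10.5% in the citrate cycle, so that these counts are no result about the lists. Of 49 genes of the respiratory chain, 5 were higher and 3 lower. These 3 (Sdhb, Sdhd and Sdha, at -0.53, -0.32 and -0.22) encode subunits of complex II, whose remaining subunit gene Sdhc (0.07) was not called. The Sdha call was lost in 6 of 17 fits that left out 1 mouse. The number of respiratory chain genes higher was between 1 and 3 without B6 replicate 1, 3 or 5 or BLKS replicate 3 or 4. Of 19 citrate cycle genes, 1 was higher, Mdh1 (0.26, not called without B6 replicate 5), and 1 lower. Of 24 lysosomal genes (25% called), 5 were higher, with Scpep1 first (1.30), and 1, the galactosidase gene Glb1 (-0.69), lower. Without B6 replicate 2 or 5 or BLKS replicate 3 or 4 the number of lysosomal genes higher was 2 or 3. Of 23 genes of fatty acid and glycerolipid synthesis (26.1% called), Fabp3 (1.55), Agpat4 (1.02), Agpat3 (0.35) and Agpat5 (0.34) were higher. Lpin2 (-0.27) and Mlxipl (-0.78), which encodes the glucose-responsive factor ChREBP, were lower. Of 19 cholesterol genes (21.1% called), 2 were higher and 2 lower, with 1 to 3 higher when 1 mouse was left out. Of 21 imprinted genes (28.6% called), 3 were higher and 3 lower. The lysosomal, lipid, cholesterol and imprinted shares were not far above the 18.9% of all genes, so that their counts are no result about the lists.

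Markers of other cells were read as whole lists. Of 6 duct genes (50% called), 3 were higher in BLKS (Spp1, Krt19 with 1.12 and Sox9 with 0.19), while Krt7 and Muc1 were not called. The median difference was 0.12. The summed log2 signal of the duct genes was 13.84 to 14.08 in B6 and 14.51 to 14.87 in BLKS. Its brightest members were Krt7 (mean 13.69 in B6 and 13.59 in BLKS) and Spp1 (11.31 and 13.65), so that the higher sum was that of Spp1 and not of the list. Of 19 acinar genes, 2 were higher (Cela1 with 0.76 and Bhlha15 with 0.45), 10.5% against 18.9% of all genes called, so that the count is no result about the list. The number higher was 4 without B6 replicate 1 or without high-glucose B6 replicate 3 or BLKS replicate 1 or 3. The summed acinar signal was 12.26 to 12.49 in B6 and 12.52 to 12.84 in BLKS. Of 12 endothelial genes (41.7% called), 5 were lower (Kdr, Vwf, Esam, Cdh5 and Tie1, from -0.43 to -0.19). Their list had sums of 11.84 to 12.14 in B6 and 11.65 to 11.87 in BLKS. Only 2 or 3 were called lower without B6 replicate 1 or 5 or BLKS replicate 1, 2 or 4. Of 11 macrophage genes (27.3% called, against 18.9% of all genes), Lyz2 (-0.58) and C1qa (-0.46) were lower and Cd14 (0.44) was higher. Of 2 tested mesothelial genes, Msln was lower, while 4 further markers were too dim to be tested. Of 12 fibroblast and 10 lymphocyte genes none was called, although Vim differed by -0.81 (adjusted p = 0.0598). Of 6 glial genes 1 was lower (16.7% called, below the 18.9% of all genes). The part of these cells in the other results was not tested.

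The strain difference in low glucose was then set beside that of the high-glucose mice, which share no animal with it but entered the same model. There, 4476 probes were called (15.3%). Of the 4585 low-glucose calls, 2916 were also called in high glucose, which is 63.6% of the low-glucose and 65.1% of the high-glucose calls. Of these 2916, 2911 had the same direction and 5 the opposite one. The 2 libraries had been doubted by their distance to the high-glucose profile, so that part of this agreement was built in.

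A direct test of high minus low glucose called 17 probes (0.058%) at adjusted p under 0.05, and 1514 had an unadjusted p under 0.05 (5.16%). At the brightest probe of each gene, 11 genes were called (0.0688%). In all 17 the strain difference was more negative in high glucose, although 8 of 27 calls with quantile normalization, 119 of 270 with a random replicate block and 241 of 529 with a model that takes each dye of a mouse separately were more positive. Phgdh was the only gene with 3 called probes, its differences being 1.40, 1.04 and 1.04 in low and 0.75, 0.38 and 0.43 in high glucose (high minus low -0.65, -0.65 and -0.61, adjusted p = 0.00274, 0.00156 and 0.0262). The other genes of its pathway gave high values below the low ones too (Psph 0.94 and 0.36, adjusted p of the difference 0.0623, and Shmt2 0.65 and 0.27, adjusted p 0.175), but were not called. In the log2 values the authors deposited, the Phgdh differences were -0.54, -0.55 and -0.51 and were not called, the lowest adjusted p being 0.396.

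The largest gap between glucose concentrations was in a gene that was not called in low glucose. Slc5a10, a sugar transporter gene, differed by -0.28 in low and -1.72 in high glucose, which is -1.44 between them (adjusted p = 3.97e-04, standard error 0.15). In low glucose its B6 mice were at 7.83, 7.79, 7.87 and 7.79 and its BLKS mice at 7.58, 7.54, 7.45 and 7.58. Meltf, an iron-binding membrane protein gene, differed by 0.23 and -0.70. The homeobox gene Meox1 was called in both conditions and in opposite directions (0.27 and -0.43). Both tested Lpin1 probes on this list, for a phosphatidate phosphatase, were lower in BLKS in both conditions (-0.74 and -0.40 in low, -1.25 and -0.94 in high glucose), while its remaining and brightest probe differed by 0.15 and -0.08.

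**Figure D5:**
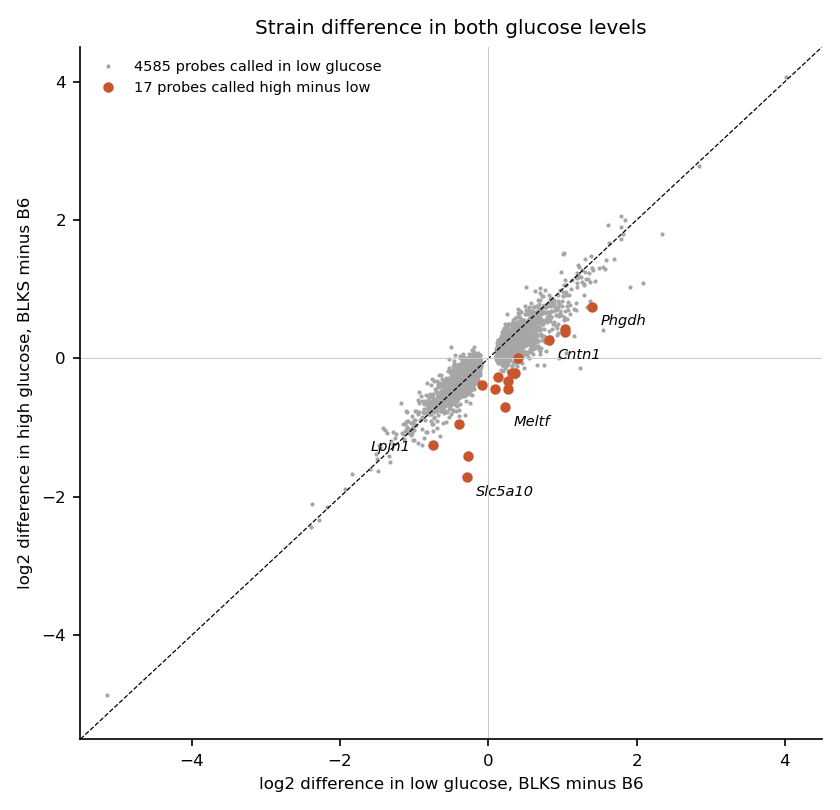
Strain difference in high glucose (vertical, log2) against that in low glucose (horizontal, log2), with both libraries left out. Grey points are the 4585 probes called in low glucose, coloured points the 17 called for high minus low glucose, and the dashed line marks equal differences. All 17 coloured points lie below the line, and Slc5a10 (-0.28 and -1.72) is the farthest from it.

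Finally, probes of 1 gene did not always agree. Of 6031 genes with 2 or more tested probes, 1782 had a called probe, 353 of these (19.8%) had all probes called, and 41 had probes called in opposite directions. The widest ranges were those of H2-Q1 (5.57), 5830417I10Rik (2.47), Plagl1 (2.10), Btbd9 (2.10) and Nnt (1.80), all of them leading genes. Differences at a single probe are therefore given as values of that probe. Whether sequence differences between the strains under a probe took part was not tested.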

How the data were processed

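Islet RNA of 19 mice was measured on 20 arrays in Cy3 and Cy5. The deposited files hold spot intensity in both dyes, read per the file headers with Agilent Feature Extraction (the submitters' processing notes name version 8.1), with linear and LOWESS dye normalization within each array and no background subtraction. The authors also deposited a table of log2 values, whose column for 1 mouse equalled the mean log2 spot signal (Pearson's r = 1.00).

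Control and outlier spots were left out, log2 signals were Aquantile-normalized between arrays, and spots and both dyes of a mouse were averaged, giving 1 value per mouse and probe (20 arrays, 41174 probes). Probes well above background in all channels of at least 4 mice (29326) were fitted with limma 3.58.1 in R 4.3.3, with a mean for each strain and glucose group. P-values were adjusted by Benjamini-Hochberg over all probes, and probes with an adjusted p under 0.05 are termed called. Signals include background, so differences of dim probes are understated, and the well-above-background flag was set on 83.9% of negative controls in Cy3 (median over arrays) against 0.318% in Cy5. Exact permutation tests were two-sided. Python 3.11.15 with scipy 1.17.1 was used for tables, and the fitting steps were tested on simulated data. Arrays have no read depth, and the number of mice limits the precision.

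Same-numbered mice of the 2 strains shared a pair of arrays at each glucose concentration. Their deviations from the group means correlated at 0.37 to 0.70 in high glucose and at 0.02 to 0.66 in low glucose (0.09 to 0.32 with both doubted libraries left out), so the replicate number was an alternative block.

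A list is read at the brightest probe of each gene, and its summed level is the log2 of the sum of its linear signals. Named genes are the 12 largest called differences in each direction without overlap, up to 4 called and 2 other members per list, the saturated hormones, the 5 genes with the widest range between probes and the 5 largest changes between glucose concentrations. Some genes are not reported here. Further members were named after their values were seen, to complete the counts. The members and the lists were chosen with earlier results of these data known.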

Additional observations from a re-analysis of the deposited data

Results flagged for a closer look

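The library labelled B6 replicate 4 stood apart from the other 4 of its group at the 106 strain-specific probes, with a position of 1.01, and that labelled BLKS replicate 5 likewise, with a position of -0.046. Of the 24 leading probes, the former stood apart in its group of 5 on 21 and the latter on 19.

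Among the 8 mice compared, chance alone sets a mouse apart in about 1 in 20 groups of 4, and 8 of 232 groups examined held such a mouse. BLKS replicate 4 was the one apart at a Gnptg probe (8.96), and BLKS replicate 1 at the other Gnptg probe (11.35), at Bhlha15 (10.9) and at Hmgcs1 (9.89). B6 replicate 5 stood apart at Mki67 (7.52) and B6 replicate 3 at Ccnd1 (10.93). For list means, BLKS replicate 3 stood apart for cell division (7.70) and BLKS replicate 1 for glycolysis (9.41).

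The strain difference changed between glucose concentrations at 17 probes in limma, in each case towards lower values in high glucose (high minus low, log2), while other settings also gave changes towards higher values (8 of 27 with quantile normalization, 119 of 270 with a random replicate block and 241 of 529 with the methods' model). The changes included -1.44 for Slc5a10, -0.93 for Meltf and -0.70 for Meox1. The 3 Phgdh probes changed by -0.65, -0.65 and -0.61 and the 2 Lpin1 probes by -0.54 and -0.51. AK015074 changed by -0.60, Pqlc3 by -0.56, Cntn1 by -0.56, Abca3 by -0.54 and Mrpl50 by -0.53. The smallest changes were those of Stx12 (-0.40), Ago2 (-0.39) and Hnrnpa1 (-0.31).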

How the results depend on the processing

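With the labels as deposited, the count of 0 called probes rose to 1243 with Cy3 alone, 2357 with the replicate number as a fixed block, 4712 with it as a random block, 5319 with the linear model of single dye values from the study's methods and 4585 with both doubted libraries left out. Leaving out 1 mouse gave 0 to 2685, with 2685 without the library labelled B6 replicate 4 and 2377 without that labelled BLKS replicate 5. With both left out, the count of 4585 was 2601 without scaling between arrays, 7454 with the random block, 2290 in the log2 values the authors deposited and 8092 with the methods' model, and 3396 to 4844 without 1 mouse. The fixed block gave 4760. With both left out, BLKS replicate 4 and B6 replicate 5 have no partner in that block, so that its low-glucose difference rests on replicates 1, 2 and 3 of each strain. For high minus low glucose, the count of 17 was 27 with quantile normalization, 8 with the fixed and 270 with the random block, 1 in the authors' values, 529 with the methods' model and 12 to 33 without 1 mouse (33 without B6 high-glucose replicate 5). The methods' model counts both dyes of a mouse as separate values. With the labels as deposited, the blocks of replicates 4 and 5 each held libraries at the positions of a single strain. The cause of these changes was not tested.

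The lists of the unfolded protein response, the amino acid response, MHC class I and cell division had 0 called members each with the labels as deposited, and cell division had 9 lower without scaling. Without 1 mouse they had 14 to 18, 10 to 11, 7 to 9 and 11 to 16. Over the other 25 lists, 659 of 800 values were within 1.5 times the reported count. For 111 named probes in low glucose, 155 of 3436 values lost the call and 0 changed direction, and with the labels as deposited all 111 lost it. For the 17 probes of high minus low glucose, 114 of 509 lost it and 0 changed direction. The number of mice and the background in the signals limit small differences and dim probes.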

Other observations

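The mean level of the unfolded protein response list can be set beside that of the high-glucose mice as a description. In the 5 B6 mice held in high glucose it ranged from 11.17 to 11.25, above the 10.63 to 10.86 of the 4 B6 mice in low glucose, whereas the BLKS mice in low glucose ranged from 11.12 to 11.24. The 4 BLKS mice in high glucose ranged from 11.45 to 11.49, above every B6 mouse in high glucose.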
